A study of Mus musculus with 4 samples.

Results

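The genes described here encode the machinery that docks, primes and fuses secretory vesicles, and they were measured in the mouse neuroblastoma line N2a. They were chosen by a rule on the gene symbol, which was set with earlier results of these data known. It takes synaptotagmins (Syt), syntaxins (Stx), syntaxin-binding proteins (Stxbp), vesicle-associated membrane proteins (Vamp), SNAP-25 relatives (Snap) and Rab3 GTPases. It also takes RIM scaffolds (Rims), synapsins (Syn), SV2 proteins, complexins (Cplx) and Munc13 proteins (Unc13). The rule found 74 of the 22667 genes in the table, and 62 of them had at least 75 reads summed over the 4 libraries, as did 12497 genes in all. The member just inside this minimum was Unc13c, with 78 reads, and the member just outside it was Syt15, with 41. Splicing events of the same genes were taken from the tables of exon and splice site use, of which 241 events in 41 member genes could be compared.

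The cells were transfected for 48 h with a pool of non-targeting siRNAs (siControl) or with siRNA to Arglu1 (siArglu1). For the latter the study's methods name a lone sequence, while the labels speak of siRNAs. Arglu1 is the gene of a nuclear protein studied as a coactivator of the glucocorticoid receptor and as a splicing factor. A 4 h treatment with ethanol as vehicle (Veh) or with 100 nM dexamethasone (Dex), a synthetic glucocorticoid, followed. Pools of mRNA from 3 cultures made up each group, so that each of the 4 groups (siControl with Veh or Dex, siArglu1 with Veh or Dex) is 1 library. All are transfected, unselected cells of a tumour line, and a change in the make-up of the culture and a change of RNA per cell cannot be told apart.

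A vesicle fuses when a SNARE protein on the vesicle (a Vamp) zippers with SNAREs on the target membrane (a syntaxin and a SNAP-25 relative) into a helical bundle. Munc18 proteins hold and guide the syntaxin, Munc13 and RIM proteins prime the vesicle at the release site, Rab3 tethers it, and synaptotagmins with complexins couple fusion to calcium. Neurons, and the chromaffin and neuroblastoma cells related to them, use this machinery for synaptic vesicles and for granules that hold peptides and amines.

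Several of the results below concern exons, and 5 exon sequences are shown here because they carry those results. Snap25 has 2 mutually exclusive exons of 118 nt, known as 5a (upstream) and 5b (downstream), which encode alternative versions of the same stretch of the protein around its membrane-attached cysteines. The coordinates printed here are those of the deposited events and were taken to be mm9, the build that the submitters' processing notes name without saying what it was used for. The exons lie on the plus strand at chr2:136595479-136595596 and chr2:136595793-136595910. They differ at 31 positions (73.7% identity), which are in capitals in the following 5′ to 3′ sequences.
Snap25 exon 5a: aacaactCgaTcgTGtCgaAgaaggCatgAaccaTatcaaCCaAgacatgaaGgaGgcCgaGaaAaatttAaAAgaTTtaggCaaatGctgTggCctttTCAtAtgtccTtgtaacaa
Snap25 exon 5b: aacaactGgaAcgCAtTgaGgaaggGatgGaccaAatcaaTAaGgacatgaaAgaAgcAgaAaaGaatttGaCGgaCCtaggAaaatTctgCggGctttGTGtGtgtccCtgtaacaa
Unc13a has 2 cassette exons of 30 nt on the minus strand, the upstream one at chr8:74190540-74190569 and the downstream one at chr8:74160437-74160466. Stxbp5 has a cassette exon of 60 nt on the minus strand at chr10:9504139-9504198. These are given without capitals, since no part of them is singled out.
Unc13a upstream exon: tcaaaaaagccaagtttgacggtgcccaag
Unc13a downstream exon: ggcagggtgaaactgccaagccactcagac
Stxbp5 exon: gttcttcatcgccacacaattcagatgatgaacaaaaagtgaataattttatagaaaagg
The sequences were read from GENCODE M21 transcripts of the same gene, by an exon of the same length at the same distances from neighbouring splice sites, and all 5 exons are wholly coding there.

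Reads on genes came to between 66074574 and 86541444 per library, and the members together took between 0.277% and 0.317% of them. Arglu1 had 10165 and 11825 reads in siControl Veh and Dex against 2637 and 3254 in siArglu1 Veh and Dex, or 26.4% and 22.5% of siControl after scaling. Of 12 markers of neurons and sympathetic neuroblastoma cells, 11 could be compared, and Nefl had at most 4 reads in a library. Their summed cRPKM (the authors' level of a gene, RPKM corrected for the mappable part of its length) was 1587 and 1594 in siControl Veh and Dex, and 2140 and 2096 in siArglu1 Veh and Dex. By the additive model described below, 8 of these markers rose and 2 (Th and Mapt) fell with knockdown. The same model called 30.8% of all genes compared higher and 30.9% lower. The markers of astrocytes, microglia, endothelium, fibroblasts and oligodendrocytes summed to at most 2.17 cRPKM a list in any library. The part of the shift in neuronal markers in the results on vesicle genes was not tested.

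Levels are given in cRPKM, which allows genes to be compared per length. Of the 62 genes, 32 averaged at least 10 cRPKM over the libraries, 52 at least 1, and 10 less than 1. Cplx1, a complexin that clamps and promotes calcium-triggered fusion, stood highest with 77.1 and 78.4 cRPKM in siControl (Veh, then Dex) and 85.1 and 87.8 in siArglu1 (Veh, then Dex), the order kept for all sets of 4 values below. It was followed by Vamp3, a vesicle SNARE of recycling endosomes (58.9, 57.2, 81.7 and 75.4), and Snap25, the target SNARE of neurons (58.5, 64.1, 57.5 and 60.7). In siControl Veh alone Vamp3 and Snap25 lay side by side, and with 1 library a group such neighbours cannot be ordered. Stx1a, a target syntaxin of neurons, averaged 25.3 cRPKM. Among the Munc13 genes Unc13a averaged 23.3, while Unc13d stayed at or under 0.60 and Unc13c at or under 0.06.

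Some members were nearly absent, although others of the synaptic machinery, such as Vamp2 and Syt1 (means of 35.8 and 31.3 cRPKM), were not. Rims1, the founding RIM, had 7, 0, 1 and 4 reads, Unc13b had 2, 2, 3 and 3, and Sv2b had 2, 2, 0 and 1. Cplx3, Cplx4, Stxbp6, Syt8, Syt10, Syt12, Syt13, Syt15 and Syt16 complete the 12 members under the minimum, and Cplx4, Syt10 and Syt16 had no read in any library. These 12 are not compared further. The counts of Stxbp3a and Stxbp3b are uncertain, since they are near-identical copies that can share reads.

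**Figure D1:**
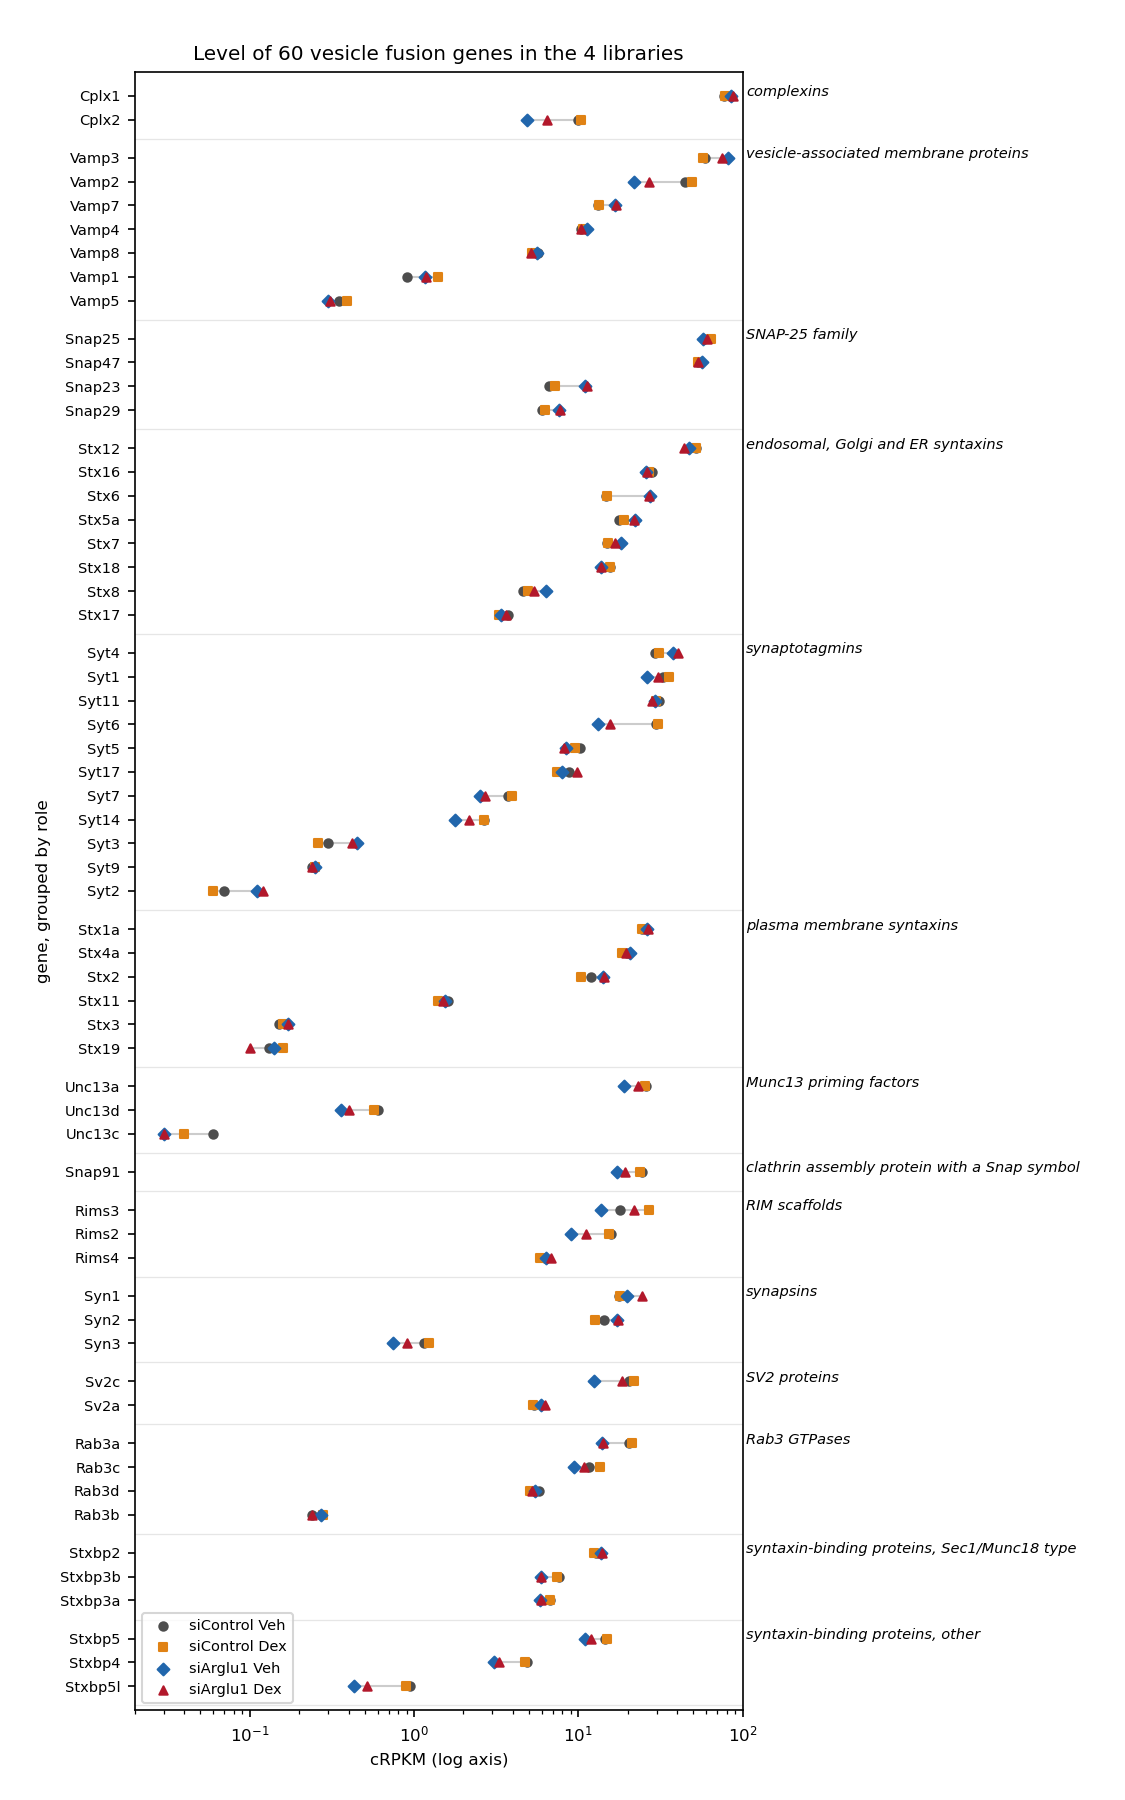
Level in cRPKM (log axis) of 60 of the 62 genes with at least 75 reads, grouped by role, with 1 point for each of the 4 libraries and a grey line from the lowest to the highest. In Vamp2 and Syt6 both siArglu1 points lie to the left of both siControl points, and in Stx6 and Snap23 to the right, while the 4 points of Stx1a or Snap47 nearly coincide.

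The first question was which of these genes changed when Arglu1 was knocked down. It was asked in 2 pairs of libraries that have no library in common, siArglu1 Veh over siControl Veh and siArglu1 Dex over siControl Dex. A gene was counted as higher or lower when its log2 ratio of TMM-scaled CPM (reads relative to the size of the library) was at least 0.81 in size. This rule uses size alone, without a test. The 95% intervals in brackets are exact for the reads of a pair and cover counting error only, not the spread between cultures. In vehicle, 1 of the 62 genes was higher (7% of all genes compared were) and 6 were lower (8.77% of all genes). In Dex, 2 were higher (6.19% of all genes) and 3 lower (5.93%). In both pairs, 1 was higher (4.83% of all genes) and 3 were lower (5.07%). These shares of the members, 1.61% and 4.84% in both pairs, are at or under those of all genes. The median log2 ratio of the members was -0.056 in vehicle and -0.089 in Dex, against 0.004 and 0.003 over all genes compared.

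Of the 3 genes that were lower in both pairs, 2 are described here, the vesicle SNARE of neurons and a synaptotagmin. Vamp2 (ENSMUSG00000020894), synaptobrevin 2, which zippers with Stx1a and Snap25, had 6406 and 7578 reads in siControl (Veh, Dex) and 3148 and 5001 in siArglu1. Both knockdown libraries lay under both controls although siArglu1 Dex was sequenced most deeply. The log2 ratio was -1.003 [-1.06 to -0.94] in vehicle and -0.89 [-0.94 to -0.84] in Dex, or 49.9% and 54.0% of the control. Syt6, a synaptotagmin best known from the acrosome reaction of sperm, had 3247, 3594, 1458 and 2248 reads, with ratios of -1.13 [-1.22 to -1.04] and -0.97 [-1.04 to -0.89]. With the trend of the ratio on transcript length removed, both genes stayed past 0.81 in both pairs.

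Stx6, a syntaxin of the trans-Golgi network and endosomes, was the single member higher in both pairs. It had 2336, 2560, 4398 and 5600 reads, and its log2 ratios were 0.93 [0.86 to 1.01] and 0.84 [0.77 to 0.91]. With the length trend removed the ratios were 0.88 and 0.80, the latter just under the threshold. Snap23, the SNAP-25 relative of cells that are not neurons, lay just under it in both pairs (6.64, 7.20, 11.0 and 11.4 cRPKM, ratios of 0.76 and 0.65) and is named after its values were seen.

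A further 4 genes passed in 1 pair, and are named for completeness after their values were seen, except Cplx2. Cplx2, the second complexin of the forebrain, had 9.94, 10.4, 4.86 and 6.43 cRPKM, a ratio of -0.999 [-1.09 to -0.91] in vehicle and -0.70 [-0.78 to -0.63] in Dex. With the length trend removed its ratio in vehicle was -0.78, under the threshold. Stxbp5l, a tomosyn that competes with Vamp2 for the target SNAREs, had 271, 274, 125 and 196 reads and ratios of -1.09 and -0.77. Unc13c had at most 28 reads in a library, and its ratio in vehicle, -0.84, has an interval of -1.89 to 0.08, so that at this depth no change could be detected. Syt2, a fast calcium sensor of hindbrain and motor synapses, had 31, 27, 52 and 72 reads, with ratios of 0.75 [0.10 to 1.46] and 1.098 [0.47 to 1.82]. Both siArglu1 libraries were thus above both controls for Syt2, on few reads.

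**Figure D2:**
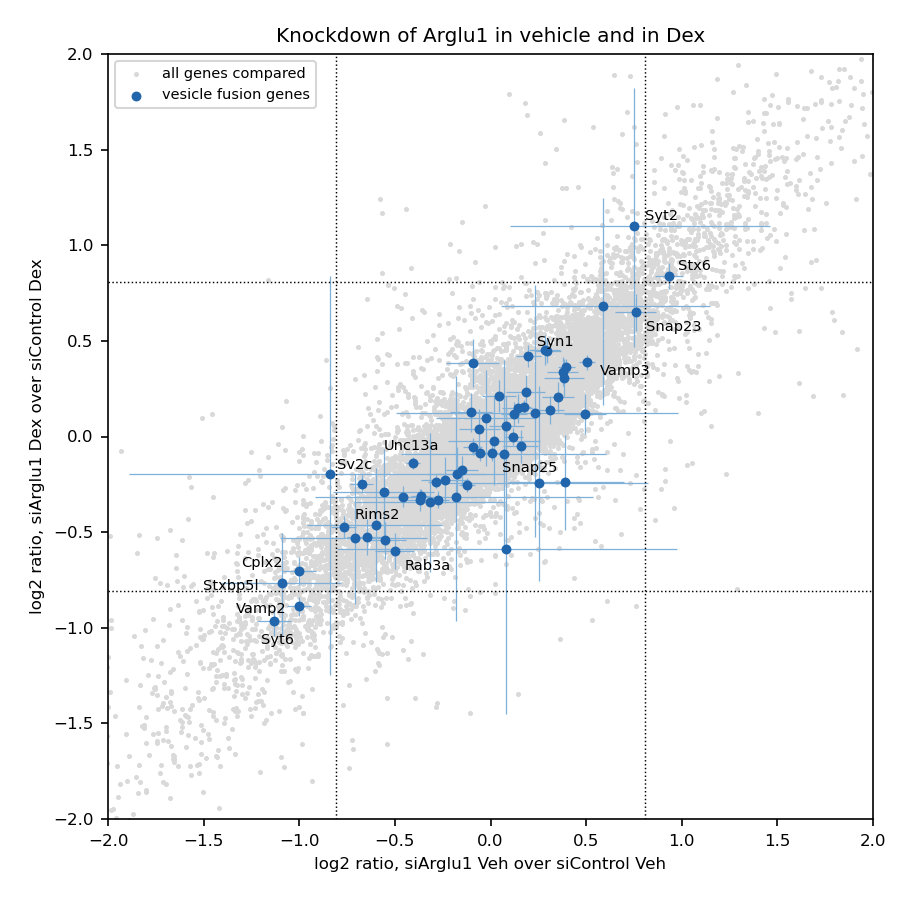
Log2 ratio of siArglu1 over siControl in vehicle (horizontal axis) and in Dex (vertical axis) for 60 vesicle fusion genes (blue, with exact 95% counting intervals) over all genes compared (grey; genes beyond the axes are not drawn), with dotted lines at the threshold of 0.81. Syt6 and Vamp2 lie past both lower thresholds and Stx6 past both upper ones, and most other members lie between them.

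Of the 62 members, 50 had the same sign in both pairs, 29 of them below 0 and 21 above 0. The same count over all genes was not computed, so it cannot be read as a trait of the members. In vehicle alone, 33 members and 6211 of the 12497 genes were below 0, and in Dex alone 37 members and 6209 genes. To use the 4 libraries together, the 12497 genes were also fitted with edgeR's quasi-likelihood test, with additive terms for knockdown and for Dex. The fit leaves 1 residual degree of freedom, takes the knockdown to be equal in Veh and Dex, and its p-values rest on single libraries of pooled RNA. At a Benjamini-Hochberg adjusted p of 0.05 it called 15 members higher after knockdown (30.8% of all genes) and 22 lower (30.9%), that is 24.2% and 35.5% of the members. Verbs of change in the following paragraphs refer to these calls, which were made without removal of the length trend.

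Among the neuronal SNAREs calls differed. Vamp2 (adjusted p = 1.11e-25) fell in the edgeR model. Its partners on the target membrane, Stx1a and Snap25, were not called. Stx1a had 24.5, 24.3, 26.03 and 26.5 cRPKM and a fitted log2 change of 0.119 (edgeR adjusted p = 0.232). Snap25, at 7906, 9331, 7825 and 10733 reads, had ratios of 0.01 [-0.04 to 0.05] in vehicle and -0.09 [-0.13 to -0.05] in Dex (edgeR adjusted p = 0.70 for its gene level). Stx2, a plasma membrane syntaxin found in many tissues, rose. Of the 4 SNAP-25 relatives, Snap23 and Snap29, both with roles outside the synapse, rose and none fell.

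Of the other 6 vesicle SNAREs, 2 rose and none fell in this model. Vamp3, which serves recycling endosomes, had 7846, 8224, 10977 and 13154 reads, and rose with ratios of 0.51 [0.46 to 0.55] and 0.39 [0.35 to 0.43]. Vamp7, a SNARE of late endosomes and neurite growth, also rose (13.2, 13.4, 16.7 and 17.0 cRPKM). Both were thus higher in each siArglu1 library than in either control. Vamp1, Vamp4, Vamp5 and Vamp8 did not pass. Among the 8 syntaxins of endosomes, Golgi and endoplasmic reticulum, 4 rose (Stx5a, Stx6, Stx7 and Stx8) and 1 fell. The one that fell was Stx12, an endosomal syntaxin and the most abundant of the group (52.3, 52.3, 46.9 and 44.1 cRPKM), with ratios of -0.12 and -0.25.

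The calcium sensors were mixed. Syt1, the fast sensor of synaptic vesicles, had 10293, 12142, 8314 and 12601 reads and ratios of -0.29 [-0.33 to -0.24] in vehicle and -0.24 [-0.27 to -0.20] in Dex. With the length trend removed these became -0.06 and -0.13. Syt4, a synaptotagmin of dense core granules and the most abundant of the family on average, had 29.5, 31.1, 38.0 and 40.2 cRPKM and rose by 0.38 (fitted log2 change, edgeR adjusted p = 2.91e-05). Of the 11 synaptotagmins compared, 3 rose (Syt2, Syt3 and Syt4) and 5 fell (Syt1, Syt5, Syt6, Syt7 and Syt14). Of the complexins, Cplx1 was not called (edgeR adjusted p = 0.0824). Its ratios were 0.18 and 0.15, or 0.08 and 0.09 with the length trend removed. Cplx2 fell by 0.85 (fitted log2 change, edgeR adjusted p = 2.73e-19).

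Of the priming and tethering genes, 2 of 3 Munc13 genes (Unc13a and Unc13d), 2 of 3 RIM genes (Rims2 and Rims3) and 2 of 4 Rab3 genes (Rab3a and Rab3c) fell in the edgeR model and none rose, whereas the synapsins and SV2 proteins had members in both directions. Unc13a, the main Munc13 of excitatory neurons, had 13502, 14267, 10034 and 15847 reads, with ratios of -0.41 in vehicle and -0.14 in Dex. Its transcript is long, and with the length trend removed the ratios turned to 0.04 and 0.08, so the direction of its gene level depends on this choice. Rims3 (18.04, 26.9, 13.7 and 21.8 cRPKM) likewise had -0.36 and -0.31, and -0.0035 and -0.13 without the trend. Rims2, a full-length RIM, fell, with 4940, 5170, 2857 and 4552 reads and ratios of -0.77 [-0.83 to -0.70] and -0.47 [-0.53 to -0.41], and is named after its values were seen. Rab3a, the Rab GTPase of synaptic vesicles, had 20.3, 21.3, 13.99 and 14.2 cRPKM and fell, with ratios of -0.50 [-0.61 to -0.40] and -0.60 [-0.69 to -0.51]. It is a short transcript, and its ratios without the trend were -0.73 and -0.72. Rab3c had ratios of -0.27 and -0.33, and without the trend 0.19 and -0.10, so its direction in vehicle also depends on this choice. Unc13d, at 93 to 159 reads, had ratios of -0.71 and -0.53, and is named with Rab3c after their values were seen. Syn1, a synapsin that clusters vesicles, had 17.6, 18.1, 19.7 and 24.3 cRPKM and rose, as did Syn2, while Syn3 (1.15, 1.23, 0.74 and 0.90 cRPKM) fell. Sv2a, a vesicle glycoprotein and the target of levetiracetam, rose by 0.21 (fitted log2 change, edgeR adjusted p = 0.0486), and its relative Sv2c fell (5552, 6429, 3426 and 6619 reads, ratios of -0.67 and -0.25).

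The syntaxin-binding proteins outside the Sec1/Munc18 type, Stxbp4, Stxbp5 and Stxbp5l, all fell. Stxbp5, a tomosyn and the most abundant of them, had 14.6, 14.96, 11.1 and 11.96 cRPKM and ratios of -0.37 and -0.33. With the length trend removed these became -0.15 and -0.23. Snap91 belongs to the set by its symbol but is a clathrin assembly protein (AP180) that retrieves vesicle membrane, among it Vamp2, after fusion. It had 24.3, 23.7, 17.3 and 19.2 cRPKM and fell, with ratios of -0.46 [-0.52 to -0.40] and -0.31 [-0.37 to -0.26]. Across the 62 members, which share their 4 libraries, the ratio in vehicle declined weakly with mappable length (Spearman's rho of -0.196, against -0.398 over all 12484 genes with a length).

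The genes that act with these members were taken from 9 lists of related functions. Of the 4 genes of NSF and SNAP, which pull spent SNARE bundles apart, 1 passed 0.81 in both pairs: Napb, the beta-SNAP of brain, with 21.7, 20.7, 9.45 and 10 cRPKM and ratios of -1.17 and -1.05. Of 12 other SNAREs, 1 was higher and 0 lower: Vti1b, a SNARE of Golgi and endosomes (36.0, 40.5, 110.1 and 98.1 cRPKM, ratios of 1.64 and 1.27). None of 5 other Sec1/Munc18 proteins and none of 9 exocyst subunits passed this size rule in both pairs. Of 11 cargo proteins and enzymes of dense core granules, 1 was lower: Scg2, secretogranin II, with 127.9, 139.8, 50.7 and 58.4 cRPKM and ratios of -1.30 and -1.27.

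Among 8 other membrane proteins of synaptic vesicles, 2 were higher and 1 lower in both pairs. Syngr3, a synaptogyrin, had ratios of 1.02 and 1.02, and Sypl, a synaptophysin relative, of 1.05 and 0.84. Slc32a1, the vesicular GABA transporter, had 72, 69, 17 and 19 reads and ratios of -2.004 and -2.08. Of 7 active zone scaffolds, Ppfia2 (liprin-alpha-2) was lower (-1.03 and -0.99). Of 10 effectors and regulators of Rab3 and Rab27, Rph3al (1.28 and 1.502) and Rab3il1 (1.24 and 1.34) were higher, both under 2 cRPKM in every library. Of 4 other calcium sensors and SNARE regulators, Snapin, a SNAP-25 binding protein, was higher, with 5.32, 5.20, 20.95 and 21 cRPKM and ratios of 2.01 and 2.004. The backgrounds of 4.83% higher and 5.07% lower apply to these counts too.

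The edgeR model, which called 30.8% of all genes higher and 30.9% lower, gave the following counts for the same lists. All 4 genes of NSF and SNAP were called, 1 higher and 3 lower. Of the 12 other SNAREs 6 rose and 0 fell, and of the 4 other calcium sensors and SNARE regulators 2 rose and 0 fell. Of the 5 other Sec1/Munc18 proteins 1 rose and 3 fell, and of the 9 exocyst subunits 1 rose and 2 fell. Of the 11 granule genes 3 rose and 4 fell, and of the 8 vesicle membrane proteins 2 rose and 3 fell. Of the 7 active zone scaffolds 0 rose and 3 fell, and of the 10 effectors and regulators of Rab3 and Rab27 3 rose and 2 fell.

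The second question was whether exons of these genes were used differently. PSI, the percent of a gene's transcripts with an exon or with a splice site in use, was deposited as estimated from junction reads of the same 4 libraries. A difference of at least 15 was counted. Each PSI rests on 1 library and carries a score in words. Where the tables also list reads, which is for splice sites, LOW corresponds to 20 to 39 junction reads, OK to 40 to 99 and SOK to 100 or more, while N means at most 9. For cassette exons the tables give only the score, so no interval can be given. Compared were 163 cassette exons, 6 microexons, 39 alternative 3′ sites (Alt3) and 33 alternative 5′ sites (Alt5), of which 131 had the best score in all libraries. In vehicle, 10 events in 6 genes differed (4.15% of the 241, against 1.96% of all events compared), 4 with higher and 6 with lower PSI in siArglu1. The 2 mutually exclusive exons of Snap25 count as 2 of these 10, although they are parts of 1 switch. In Dex, 6 events in 6 genes differed (2.49%, against 1.52% of all events), 1 higher and 5 lower. In both pairs and the same direction, 2 events differed (0.83%, against 0.54% of all events), and both were lower.

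The 2 events are exon 5b of Snap25 and the upstream 30-nt exon of Unc13a, whose sequences are given above. Exon 5b of Snap25 had a PSI of 24.7 and 25.7 in siControl (Veh, Dex) and 9.62 and 9.52 in siArglu1, each with the best score. The pairs differed by -15.1 and -16.2, while the libraries of 1 siRNA differed by 1 in siControl and -0.10 in siArglu1. Its partner, exon 5a, named here as such, went the other way, with 68.9, 72.5, 87.6 and 86.8 (differences of 18.7 and 14.3). As a share of both exons, 5a made up 73.6%, 73.8%, 90.1% and 90.1%. In brain, 5a predominates in the embryo and in endocrine cells and 5b after birth. Read beside the gene level given above, the mix of the 2 forms differed between siRNAs in Snap25 while its scaled gene level after knockdown was 100.5% (vehicle) and 94.2% (Dex) of the control. With the length trend removed, the log2 ratios of its gene level were -0.11 and -0.16.

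The upstream 30-nt exon of Unc13a had a PSI of 44.2, 36.6, 15.2 and 18.6, all with scores of OK or SOK. Both siArglu1 libraries were well below both controls, with differences of -29.0 and -17.97. The downstream 30-nt exon was also lower, with 64.8, 54.1, 42.3 and 47.7, but the difference in Dex, -6.33, was much smaller than that in vehicle, -22.5. A 6-nt microexon of Unc13a had 92.98, 93.1, 82.4 and 83.1 and stayed under the threshold (-10.6 and -10). Both 30-nt exons and the microexon are multiples of 3, so that their inclusion keeps the reading frame.

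Of its 14 events compared, Snap91 had 3 past 15 in at least 1 knockdown pair, the highest number of any member. As a share this was not the highest, since Snap25 had 2 of 3, Syt7 2 of 4 and Unc13a 2 of 15. Its 6-nt microexon (chr9:86707915-86707920) had a PSI of 77.1, 70.8, 50 and 57.5 (-27.1 and -13.4). Its 162-nt exon (chr9:86693373-86693534) had 68.05, 72.5, 57.7 and 46.7 (-10.3 and -25.8). An 84-nt exon, named after its values were seen, had 76.2, 74.6, 60.1 and 60.3 (-16.1 and -14.2). Both siArglu1 libraries were below both controls in each of the 3.

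**Figure D3:**
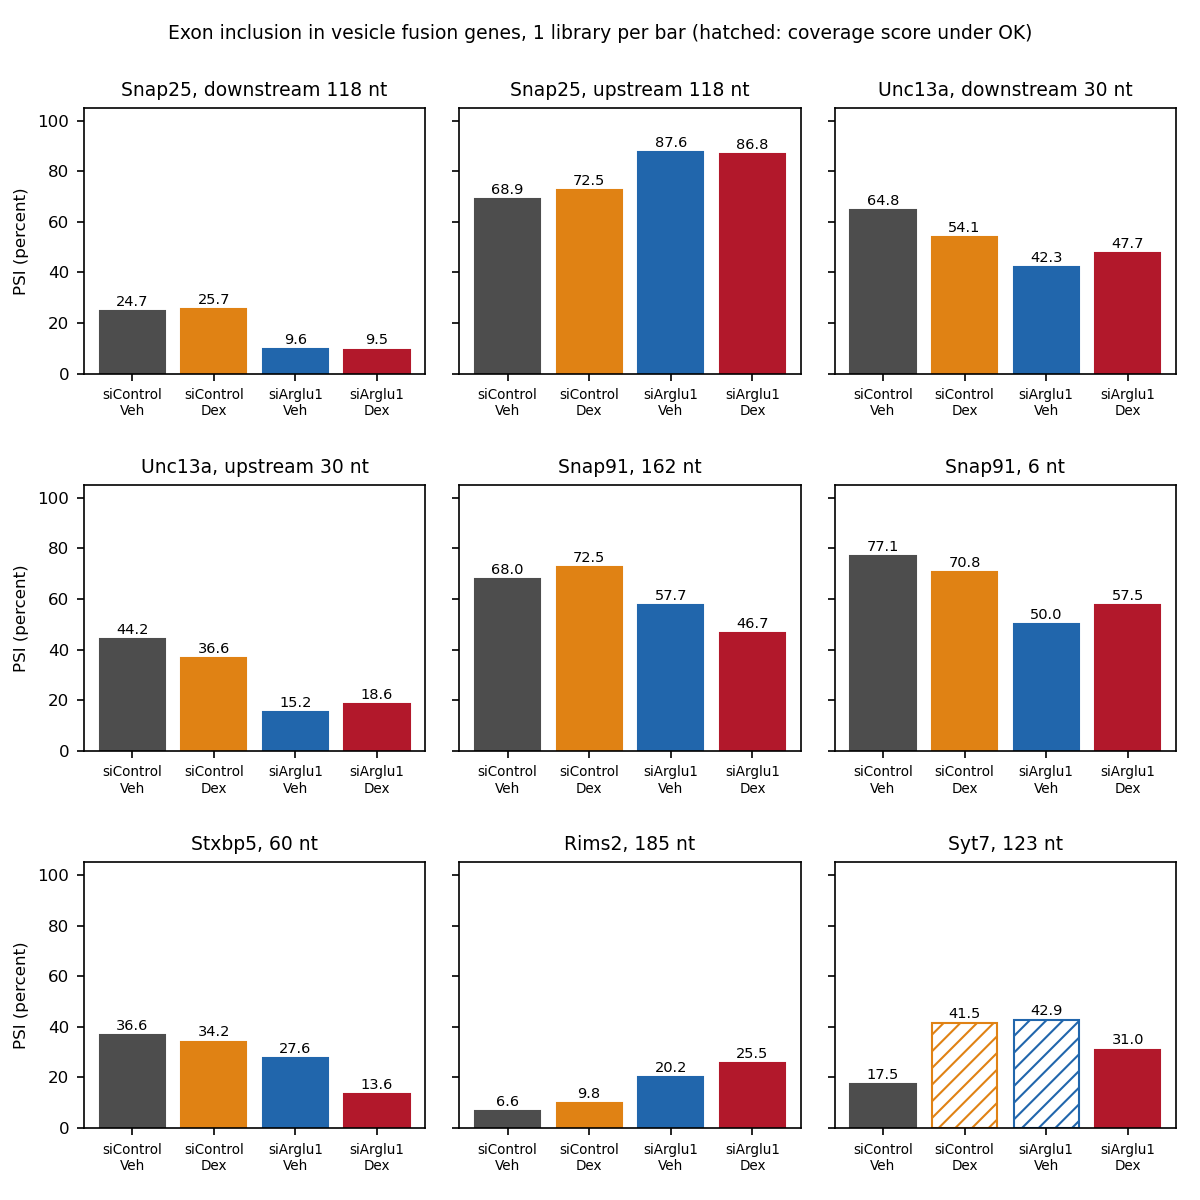
PSI (percent, 0 to 100) of 9 exons of vesicle fusion genes in each of the 4 libraries, with 1 bar per library, no error bars because there are no replicates, and hatching where the coverage score was under OK. Exon 5b of Snap25 and the Unc13a, Snap91 and Stxbp5 exons are lower in both siArglu1 libraries than in both controls, exon 5a of Snap25 and the Rims2 exon are higher, and the Syt7 exon changes direction between the pairs.

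The remaining named events were in a tomosyn, a RIM and a synaptotagmin. The 60-nt exon of Stxbp5 had a PSI of 36.6, 34.2, 27.6 and 13.6 (-9.03 and -20.6). The 185-nt exon of Rims2 (chr15:39069460-39069644) had 6.61, 9.81, 20.2 and 25.5 with a score of OK in all libraries, and was higher in both pairs (13.6 and 15.7). The 123-nt exon of Syt7 (chr19:10504828-10504950) had 17.5, 41.5, 42.9 and 31.03, with a score of LOW in siControl Dex and N in siArglu1 Veh. Its difference was 25.4 in vehicle and -10.5 in Dex. The other events past 15, named after their values were seen, were a 132-nt exon of Syt7 (15.6 and 5.71, score N in siArglu1 Veh), an Alt3 site of Rims4 (-19.01 and 11.9, on 36 to 58 junction reads), an Alt5 site of Stx17 (15 and -5.33, on 9 to 25 reads) and a 216-nt exon of Syt14 (-10.8 and -15.4, score LOW in 3 libraries). With OK or better in all 4 libraries, 6 events remained in vehicle and 5 in Dex, and those of Syt7, Rims4, Stx17 and Syt14 were not among them. The share of all events at this coverage was not computed.

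Just under the threshold in both pairs lay an Alt3 site of Syn1 that adds 38 nt. Its PSI was 56.9, 47.96, 41.9 and 33.5 (-14.9 and -14.4) on 109, 98, 124 and 173 junction reads. A 93-nt exon of Snap23 (17.4, 13.04, 4.59 and 0.66, differences of -12.8 and -12.4, OK in all libraries) was likewise lower in both knockdown libraries than in both controls. Both were named after their values were seen. Of the 12 exons past 15 in a knockdown pair, 9 had a length divisible by 3 (75%), against 68 of the 157 other member exons (43.3%). Over all genes, 52.5% of 1137 changed exons and 40.4% of the 32973 compared had such a length. These shares are descriptions, since exons of 1 gene are not independent.

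Of the genes named above that passed 0.81 in gene level in both pairs, Syt6 (2 events compared) and Stx6 (4 events compared) had no event past 15 in any pair, and Vamp2 had no event that could be compared. The genes with an event past 15 in both pairs, Snap25 and Unc13a, had gene level ratios under 0.81 in size in both. The overlap of the 2 kinds of call over all genes was not computed. With so few genes on either side, this cannot be read as a trait of the members.

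The third question was the response to Dex within siControl and within siArglu1 cells, with a threshold of 1 on the log2 scale. No member passed it. In siControl 0 of 62 genes were higher (0.32% of all genes) and 0 lower (0.144%), and in siArglu1 0 were higher (0.328%) and 0 lower (0.064%). This size rule has no p. The additive edgeR model at an adjusted p of 0.05 called 2 members higher after Dex (0.992% of all genes) and 0 lower (0.048%). At an unadjusted p under 0.05 it had 6 members higher and 0 lower, and an additive DESeq2 model called 1 higher and 0 lower. The shares of all genes for these last counts were not computed, so they cannot be read as a trait of the members.

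The 2 genes are Rims3 and Sv2c. Rims3, a short RIM relative that lacks the Rab3-binding part, had 7694 and 12375 reads in siControl Veh and Dex and 5887 and 12199 in siArglu1 Veh and Dex. Both Dex libraries lay above both vehicle libraries. Dex over Veh came to 0.59 [0.54 to 0.63] on the log2 scale in siControl cells and 0.64 [0.60 to 0.69] in siArglu1 cells, or 150.1% and 155.9% of vehicle, and the fitted change 0.61 had an edgeR adjusted p of 5.41e-10. With the length trend removed the ratios were 0.62 in siControl and 0.49 in siArglu1, so which of them is larger depends on this choice. Sv2c had ratios of 0.11 [0.06 to 0.16] in siControl and 0.54 [0.48 to 0.60] in siArglu1, or 0.13 and 0.47 with the length trend removed. Its level in siArglu1 Veh was the lowest of the 4 libraries. Its fitted change of 0.32 (edgeR adjusted p = 0.0219) stands for 2 unequal ratios, and the difference between them was not tested. Vamp1, named after its values were seen, had a ratio of 0.61 [0.33 to 0.90] in siControl and -0.02 [-0.28 to 0.24] in siArglu1 on 164 to 278 reads. The ratio for Dex in siArglu1 rose with mappable length (Spearman's rho of 0.543 over all genes compared, 0.338 over the 62 members). For the SNARE core the response was small: Snap25 had ratios of 0.14 and 0.05, Stx1a -0.0030 and -0.01, and Vamp2 0.14 and 0.26.

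**Figure D4:**
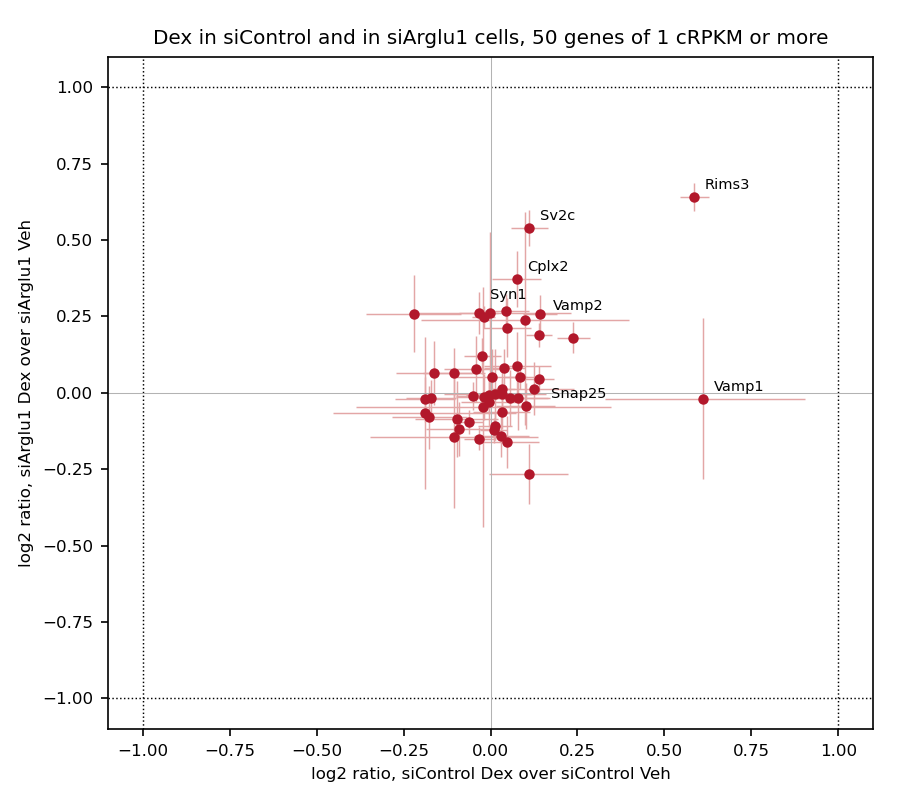
Log2 ratio of Dex over Veh in siControl (horizontal axis) and siArglu1 cells (vertical axis) for 50 of the 52 members that average at least 1 cRPKM, with exact 95% counting intervals and dotted lines at the threshold of 1. Rims3 stands apart at 0.59 and 0.64, Sv2c is high in siArglu1 and Vamp1 in siControl, and the rest lie around 0.

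Few member events differed after Dex. In siControl, 2 of 241 did (0.83%, against 0.719% of all events compared), the 123-nt exon of Syt7 and the Alt5 site of Stx17, and in siArglu1 1 did (0.415%, against 0.948%), the Alt3 site of Rims4. In each of these events at least 1 of the 2 libraries compared had a score under OK. The exons of Snap25 differed by at most 3.60 after Dex, and the upstream Unc13a exon by -7.60 in siControl and 3.40 in siArglu1.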

How the data were processed

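The authors pooled mRNA of 3 cultures per group, sequenced 1 polyA-enriched library per group on a HiSeq2500, and deposited a table of read counts per gene and of RPKM corrected for mappability (cRPKM). The authors also deposited tables of PSI as a percent of 0 to 100 with a coverage score in words, made with vast-tools. The submitters' processing notes name Bowtie and mm9, without version or role, and the sources used here do not say whether counting used strand. A gene with a blank count was taken as 0 reads, and 2 columns of the authors' Dex over Veh ratio were not used.

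Counts were scaled with TMM factors in edgeR 4.0.16 (R 4.3.3, limma 3.58.1), and genes with at least 75 reads summed were compared on log2 CPM (prior count 1). Thresholds of size were 0.81 for knockdown and 1 for Dex. Intervals at the 95% level are exact and conditional on the reads of a pair. The additive edgeR quasi-likelihood model, with Benjamini-Hochberg adjustment over 12497 genes, was fitted for knockdown and Dex, with DESeq2 1.42.0 as an alternative. An event was compared if each of the 4 libraries had a PSI for it and at least 3 scored LOW or better. The sites of 1 Alt3 or Alt5 event were merged and its reference site left out. Mappable length was computed from counts and cRPKM, and its trend removed by lowess (span 0.3, statsmodels 0.14.6).

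The members and lists were chosen with earlier results of these data known. Named were a core of 13 synaptic genes, every member past the threshold in both knockdown pairs or in a Dex pair, the most abundant member of each role, every event past 15 in both knockdown pairs and the 3 largest others of each pair, and per related list the 2 largest rises and falls past 0.81 in both pairs. The values of 2 members, which count in every total, are not reported here or drawn in the figures. Other genes are said to be chosen after their values were seen. The scripts were tested on simulated data before use.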

Additional observations from a re-analysis of the deposited data

Results flagged for a closer look

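With 1 library per group, no group could be searched for a sample far from the others. The following splicing events passed 15 PSI in 1 pair and had the opposite sign in the pair under the other condition, and in none of them was the difference between the pairs tested. The 123-nt exon of Syt7, a calcium sensor of slow release, differed with knockdown by 25.4 in vehicle and -10.5 in Dex, and with Dex by 24.1 in siControl and -11.8 in siArglu1. Its score was N in siArglu1 Veh and LOW in siControl Dex. The Alt3 site of Rims4, a short RIM relative, which adds 3 nt, differed with knockdown by -19.01 in vehicle and 11.9 in Dex, and with Dex by -11.3 in siControl and 19.6 in siArglu1. It had 39 and 43 junction reads in siControl (Veh, Dex) and 36 and 58 in siArglu1. The Alt5 site of Stx17, a syntaxin of autophagosomes, differed with knockdown by 15 in vehicle and -5.33 in Dex, and with Dex by 18.3 in siControl and -2 in siArglu1, on 20, 9, 20 and 25 junction reads in the same order.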

How the results depend on the processing

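Of the counts of members and events, 35 of 61 recomputed values equalled the value reported or stayed within 1.5 times of it. Among the 35 are counts of members changed by Dex that were 0 both as reported and as recomputed, for which a ratio has no meaning. Without a minimum on reads, 15 members instead of 7 passed with knockdown in vehicle, 9 instead of 5 in Dex, and 5 and 2 instead of 0 with Dex in siControl and siArglu1. At a threshold of 1.5, 0 members passed in vehicle, in Dex or in both pairs. The additive DESeq2 model called 1 member for Dex instead of 2, and for knockdown 27 instead of 37. For events, a difference of 25 left 3 in vehicle, 1 in Dex, 0 in both pairs and 0 with Dex in either siRNA. A difference of 10 gave 24, 24, 12, and 8 and 9 with Dex, in the same order, and no coverage minimum gave 25, 24, 5, 13 and 17. With OK or better in all libraries, 6 remained with knockdown in vehicle and 0 with Dex in siControl or siArglu1. The shares of all genes or events under these other settings were not computed, so these counts cannot be read as a trait of the members. The cause of other differences was not tested. Of the named members' ratios, DESeq2 size factors, cRPKM and a prior count of 5 left 84 of 84 each within the counting interval, and removal of the length trend moved 44 of 84 outside it, without a change of sign in a ratio past its threshold. Syt6 and Vamp2 passed 0.81 in both pairs under each scaling and minimum tried, while Stx6 dropped out and Syt2 came in when the length trend was removed. No paired analysis was possible because each group has 1 library, and no library could be left out for the same reason. Depth limits genes under about 75 reads and the events with a score under OK.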
